A study of Mus musculus with 9 samples.

Results

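The genes described here are 8 immediate early genes of LPS-treated mouse macrophages: Ier2, Ier3, Ier5, Egr1, Egr2, Egr3, Myc and Btg2. They were taken by symbol from the deposited table of reads per gene, and all 8 were found among its 20467 genes. The 9 sequenced libraries came from the mouse macrophage cell line RAW264.7, and every culture had received LPS (100 ng/ml, 2 h), so no library shows the genes without stimulation. The 3 Roquin IP libraries hold RNA recovered with rabbit polyclonal Roquin antibodies (514A and 515A) and protein A/G beads. The 3 control IP libraries hold RNA recovered on the same beads with no antibody, and the 3 input libraries hold lysate RNA taken before IP. Because the control IP held no antibody, RNA brought down by Roquin and RNA brought down by other material on the antibodies cannot be told apart.

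Immediate early genes are transcribed within minutes of a stimulus, without new protein synthesis, and their mRNAs are mostly short-lived. In macrophages, LPS starts this program through the MAP kinase and NF-kappaB pathways. Roquin proteins bind short stem-loops in mRNAs, the constitutive decay elements (CDEs), and bring in the deadenylase complex CCR4-NOT, which shortens the poly(A) tail and starts decay. The sequencing asked which mRNAs travelled with Roquin.

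Of the 8 mRNAs, 2 (Ier3 and Ier5) were higher in Roquin IP over both backgrounds, where an adjusted p under 0.05 was reached upwards by 3.76% of all tested genes over control IP and 5.45% over the input. Ier3 was 23.5-fold higher than in control IP and 30.9-fold higher than in the input, and Ier5 was 4.72-fold and 7.35-fold higher. Ier2, the member that shares their name prefix, did not pass in either comparison, and neither did Egr2 or Myc. Egr1 lay near 2-fold and did not pass, but did when the replicate number was fitted as a block. Egr3 and Btg2 passed over the input but not over control IP.

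The libraries held 1799390 to 12975767 reads, the inputs being the shallowest (1799390 to 2122288). Levels are given as CPM, counts scaled by the library size and its TMM factor, a scaling that aligns the bulk of genes between libraries. A step of 1 CPM was worth 2.38 to 10.3 counts for Roquin IP, 3.28 to 11.6 for control IP and 2.02 to 2.53 for the inputs. All 8 genes passed the filter on low counts that left 9567 genes for testing, and each passed with counts in all 9 libraries. The macrophage identity of the cells was visible in every group: the 10 macrophage markers summed to 1412 to 2192 CPM in the Roquin IPs, 1166 to 1749 CPM in the control IPs, and 1396 to 1868 CPM in the inputs. Cd14 and Lyz2 were the highest of these, with means of 719 and 457 CPM in the Roquin IPs. Fcgr3 and Mrc1 did not pass the count filter and were not tested, and Mrc1 had no count in the control IPs or the inputs. Of the 8 macrophage markers tested, 0 passed in any of the 3 comparisons. Of 7 T and B cell markers 6 had no count in any library, and 11 fibroblast, epithelial and endothelial markers together reached at most 1.29 CPM in a library. In such bulk libraries, more cells that hold an mRNA and more mRNA per cell cannot be told apart.

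Ier3 encodes a stress-inducible protein that influences cell survival. In the deposited table it was the only member with a predicted CDE, classed as conserved and in the 3' untranslated region (3' UTR), while the other 7 were classed as having none. In the GENCODE M21 annotation (GRCm38) the gene lies on chromosome 17, 35821684 to 35822923, plus strand. The stem-loop is shown because, among the members, it was found in Ier3 alone. It is given beside the matches in Tnf, which encodes a main inflammatory cytokine, and in Fos, an immediate early gene of the AP-1 family. Capitals mark the 9-base core: TTC, a loop of pyrimidine, purine and pyrimidine, and GAA, which pairs with TTC. All 3 are read 5′ to 3′ on the transcript strand.
Ier3, chr17:35822872-35822890, plus strand: gtatgTTCTGTGAAcacga
Tnf, chr17:35199583-35199601, minus strand: atgttTTCTGTGAAaacgg
Fos, chr12:85477076-85477094, plus strand: cagttTTCCATGAAaacgt
The Ier3 core began at base 567 of a 613-base 3' UTR, close to its end, and its stem could form 5 consecutive pairs, G-T pairs allowed, against 7 in Tnf and 6 in Fos. The loop of Ier3 had the same letters as that of Tnf. Tnf and Fos were both higher in Roquin IP over control IP, at log2 fold changes of 7.57 and 2.56. Other listed and tested genes held the core without being called higher there. Mlxip had the same 9 letters as Ier3 and 5 pairs, at -0.07 (edgeR adjusted p = 0.967). Csrnp1 (3 pairs), Arc (4) and Mpeg1 (3) were at -0.54, 0.26 and 0.60 (0.644, 0.903 and 0.779). No other member held the core in its 5' UTR, coding sequence or longest annotated 3' UTR. Among the 3' UTRs of tested genes, 6.01% (568 of 9447) held the core and 1.40% (132) held it on a stem of 5 pairs. Among tested 3' UTRs within 10% of the length of that of Ier3 these shares were 2.81% (14 of 498) and 1.00% (5).

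The 3' UTR of Ier3 also held AU-rich elements, which recruit other decay factors. The heptamer TATTTAT occurred 4 times, and the pentamer ATTTA, which lies within each heptamer, 5 times. The heptamers are shown in capitals because Ier3 had more of them than any other member.
Ier3, chr17:35822486-35822504: aattaaTATTTATgtattt
Ier3, chr17:35822494-35822512: tttatgTATTTATgtatat
Ier3, chr17:35822536-35822554: atgtaaTATTTATtctaac
Ier3, chr17:35822591-35822609: cacagaTATTTATtacgat
All lie on the plus strand. They began at bases 182 to 287 of the 3' UTR, well before the stem-loop, and the first 2 windows overlap by 11 bases. Of the other members, Btg2 alone held a heptamer (1), and Ier2 alone held no pentamer. The heptamer was present in 31.1% of the 9447 tested 3' UTRs and the pentamer in 71.4%. Matches of letters describe these windows and do not show binding.

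**Figure D1:**
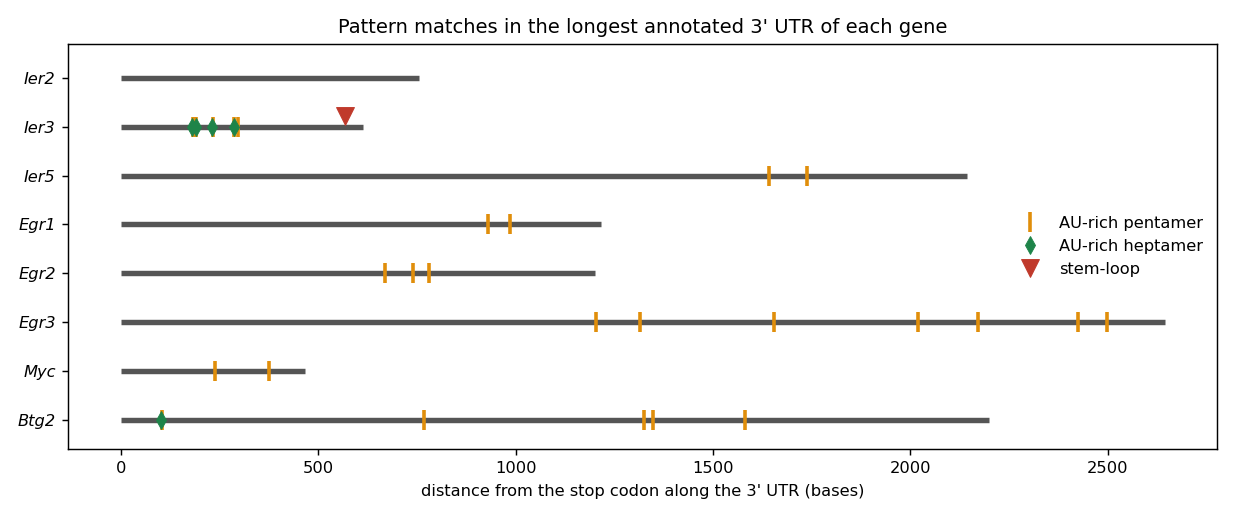
The longest annotated 3' UTR of each gene, drawn to scale from the stop codon (x axis, bases), with matches to the stem-loop core, the AU-rich pentamer and the AU-rich heptamer. The stem-loop stands in Ier3 alone, at base 567 of 613, after the 4 heptamers.

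Ier3 was at 4035, 8994 and 5831 CPM in Roquin IP 1, 2 and 3, at 141.9, 390.2 and 269 CPM in control IP, and at 101.8, 257 and 251.9 CPM in the input. Every Roquin IP library lay far above every library of the other groups. In both other groups library 1 was the lowest, as it was in Roquin IP. Against control IP this was a log2 fold change of 4.56 (SE 0.50, edgeR adjusted p = 3.77e-05), and against the input 4.95 (SE 0.51, adjusted p = 2.22e-05). Between libraries of the same number the ratio of Roquin IP to control IP was 28.4, 23.0 and 21.7. In control IP against the input Ier3 did not pass (log2 fold change 0.39, SE 0.44, adjusted p = 0.662). The calls held in all 16 alternative settings of both Roquin comparisons, with log2 fold changes of 3.68 to 4.93 over control IP and 4.17 to 5.19 over the input. In the authors' deposited table the linear ratio of Roquin IP to control IP was 23.99 with p = 0.000807.

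Ier3 carried most of the reads of the 8 genes in Roquin IP. Its share of their summed counts was 88.3% ± 5.27 in the Roquin IPs, 38.5% ± 15.7 in the control IPs, and 35.1% ± 13.4 in the inputs (SD, n = 3 each). The 8 genes together took 0.480% ± 0.136 of all reads in the Roquin IPs, 0.0846% ± 0.00951 in the control IPs, and 0.0665% ± 0.00993 in the inputs (SD, n = 3 each). A ratio of 2 genes within a library does not depend on the scaling between libraries. Ier3 had 100.2, 235.6 and 99.3 counts per count of Ier2 in Roquin IP, against 4.36, 12.1 and 3.99 in the control IPs and 3.57, 8.55 and 2.90 in the inputs. The Roquin IP ratios lay above all others, and library 2 was the highest of each group.

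Among genes of the same predicted class, Ier3 was neither the strongest nor near the end. The table classed 55 genes with a conserved CDE in the 3' UTR, and 37 of them were tested. Of these, 23 (62.2%) were higher in the Roquin IPs over control IP, with a median log2 fold change of 2.48, against 3.49% of the 9437 tested genes classed as having no CDE, with a median of -0.12. Ier3 ranked 7 of the 37 by fold change, between Bmpr1a (4.69), a receptor gene of bone morphogenetic proteins, and Icos (4.35), a costimulatory receptor gene. Over all 9567 tested genes it ranked 40.

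**Figure D2:**
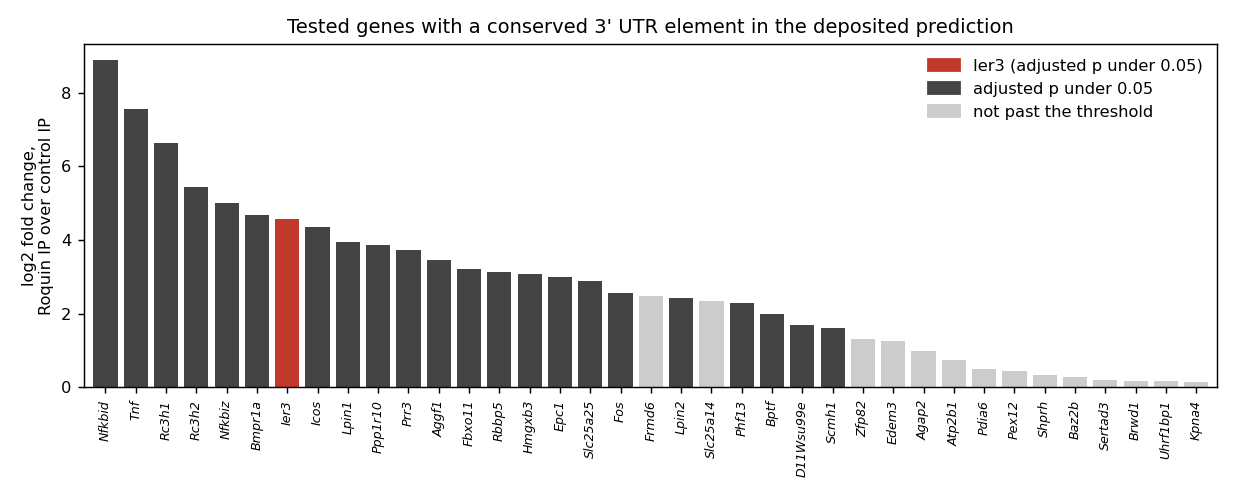
Log2 fold change of Roquin IP over control IP (y axis) for the 37 tested genes whose deposited prediction is a conserved CDE in the 3' UTR, in order of size. Ier3 (red) stands at 4.56, the seventh bar, and dark bars passed an adjusted p under 0.05.

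Ier5 encodes a nuclear early-response protein that acts with heat shock factor. It carried no predicted CDE in the deposited table and no stem-loop core in its transcript. It lies on chromosome 1, 155096361 to 155099636, minus strand. Ier5 was at 406.4, 327 and 333.1 CPM in Roquin IP, against 91.1, 70.4 and 65.0 CPM in the control IPs and 51.3, 41.1 and 52.6 CPM in the inputs. The groups did not overlap in any of the 3 comparisons. Its log2 fold change was 2.24 over control IP (SE 0.27, adjusted p = 7.27e-05) and 2.88 over the input (SE 0.28, adjusted p = 1.25e-05). Between libraries of the same number, Roquin IP over control IP gave 4.46, 4.65 and 5.13. Control IP over the input did not pass (0.64, SE 0.26, adjusted p = 0.19). Ier5 passed in all 16 alternative settings of both Roquin comparisons, at 1.41 to 2.39 over control IP and 2.13 to 2.96 over the input. In the authors' deposited table its ratio was 4.77 with p = 0.000035. It ranked 209 of 9567 genes, and Ier3 had 9.93, 27.5 and 17.5 counts per count of Ier5 in Roquin IP, against 1.56, 5.55 and 4.14 in the control IPs and 1.98, 6.25 and 4.79 in the inputs.

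Ier2 encodes a nuclear early-response protein of the same family as Ier5, while Ier3 is unrelated to both in sequence. The Ier2 gene lies on chromosome 8, 84661331 to 84662852, minus strand. Ier2 was at 40.3, 38.2 and 58.7 CPM in the Roquin IPs, 32.6, 32.1 and 67.5 CPM in the control IPs, and 28.5, 30.1 and 86.8 CPM in the inputs. All 3 groups overlapped, and the third library was the highest of each group. Roquin IP differed by a log2 fold change of 0.05 from control IP (SE 0.44, adjusted p = 0.979), and of -0.07 from the input (SE 0.44, 0.946), with -0.12 for control IP over the input (SE 0.44, 0.91). With these errors a change of moderate size in either direction was not detectable. Without Input 3 the changes over the input were 0.66 for Roquin IP and 0.56 for control IP, with adjusted p of 0.359 and 0.462.

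**Figure D3:**
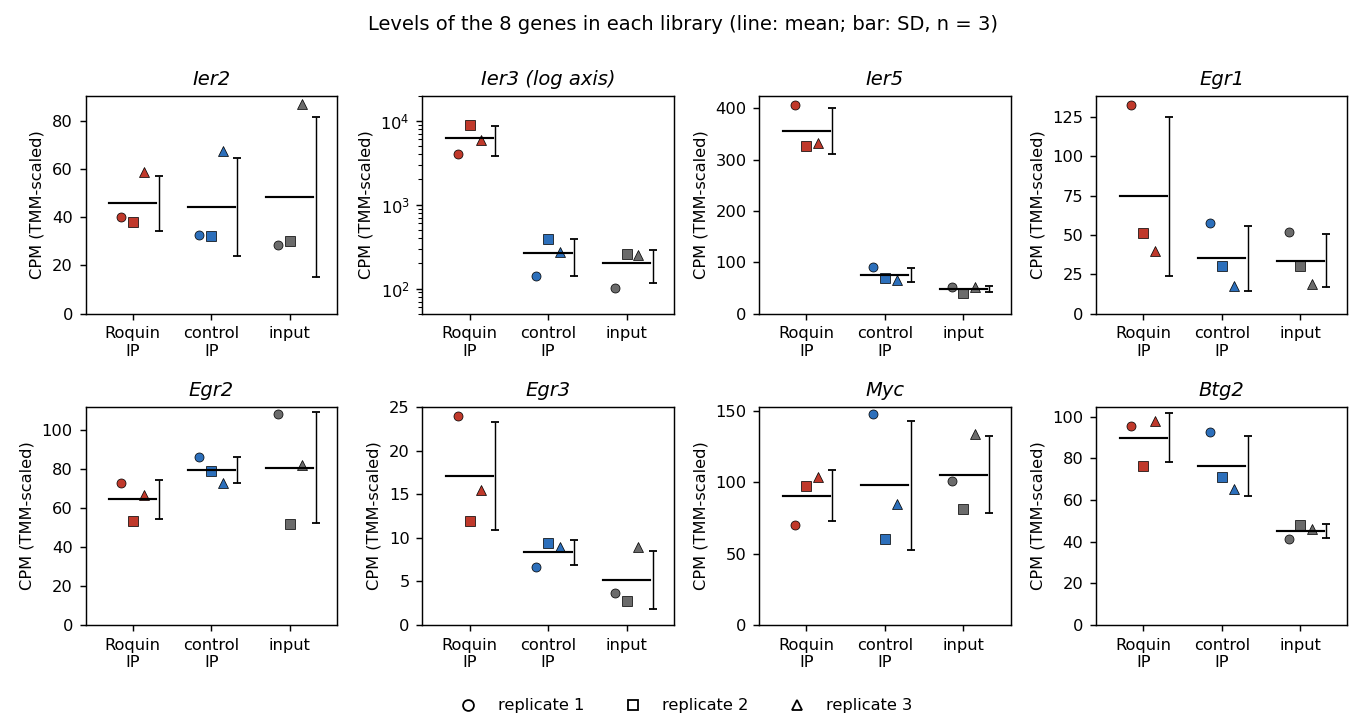
TMM-scaled CPM (y axis, log scale for Ier3 only) of each gene in the 9 libraries, by group; symbols give the replicate number, lines the mean and bars the SD (n = 3). Ier3, Ier5 and Egr3 in Roquin IP lie above all control IP and input libraries, while Ier2, Egr2 and Myc overlap between groups.

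The 3 Egr genes encode zinc-finger transcription factors that bind the same class of GC-rich sites. Egr1 was at 132.5, 51.2 and 39.7 CPM in the Roquin IPs, 57.9, 30.2 and 17.8 CPM in the control IPs, and 52.1, 30.1 and 18.8 CPM in the inputs. Library 1 was the highest and library 3 the lowest of every group, so the groups overlapped although each Roquin IP library lay above the control IP and input libraries of its own number. The same-number ratios of Roquin IP were 2.29, 1.70 and 2.23 over control IP and 2.54, 1.70 and 2.10 over the input. The log2 fold change was 1.08 over control IP (SE 0.52, adjusted p = 0.52) and 1.12 over the input (SE 0.52, 0.218), and neither passed. With the replicate number as a block, Egr1 passed over control IP (1.04, adjusted p = 0.00926) and over the input (1.07, 0.00604). It also passed over the input with no count filter (1.13, 0.0247). Without Roquin IP 1, the library with the highest Egr1 level, the log2 fold change was 0.38 over control IP and 0.43 over the input, and leaving out 1 library at a time gave 0.38 to 1.62 and 0.43 to 1.58. Control IP and the input differed by 0.05 (adjusted p = 0.977).

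Egr2, on chromosome 10 (67535475 to 67542188, plus strand), did not pass in any comparison. It was at 73.0, 53.6 and 66.8 CPM in the Roquin IPs, 86.2, 79.0 and 72.8 CPM in the control IPs, and 108.3, 51.8 and 82.3 CPM in the inputs. The Roquin IP values lay mostly below those of control IP, with an overlap of 1 library on each side. The log2 fold change was -0.30 over control IP (SE 0.30, adjusted p = 0.797) and -0.33 over the input (SE 0.30, 0.56).

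Egr3, on chromosome 14 (70077203 to 70082614, plus strand), was the scarcest member, with 57, 94 and 160 counts in the Roquin IPs, 22, 48 and 104 in the control IPs, and 9, 7 and 18 in the inputs. These were 23.9, 11.9 and 15.5 CPM in Roquin IP, 6.70, 9.41 and 8.94 CPM in control IP and 3.67, 2.77 and 8.93 CPM in the input. Roquin IP lay above both other groups in all libraries, and control IP overlapped the input. Over control IP the log2 fold change of 1.00 (SE 0.46) did not pass (adjusted p = 0.492, and 0.285 with the replicate block). Over the input, Egr3 was 3.35-fold higher (log2 fold change 1.74, SE 0.50, adjusted p = 0.048). That call ended with library size alone (1.01, adjusted p = 0.153) and without Roquin IP 1 (0.216), Roquin IP 2 (0.0687), Roquin IP 3 (0.119), control IP 2 (0.0685), control IP 3 (0.0562), Input 1 (0.126) or Input 2 (0.16). With 1 library left out the log2 fold change over the input ran over 1.44 to 2.40, the upper end being without Input 3, where Egr3 passed (0.0226). The transcripts of Egr2 and Egr3 share an identical run of 44 bases, the longest between any 2 members. Reads that lie wholly within that stretch cannot be assigned with certainty. Whether there were such reads is open, because the sources used here give no read length.

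Myc, on chromosome 15 (61985391 to 61990374, plus strand), encodes a growth-promoting transcription factor. It was at 70.0, 97.5 and 103.7 CPM in the Roquin IPs, 148, 60.6 and 84.8 CPM in the control IPs, and 101, 81.1 and 133.9 CPM in the inputs. The groups overlapped, and the same-number ratios of Roquin IP to control IP lay on both sides of 1 (0.473, 1.61 and 1.22). The log2 fold change was -0.11 over control IP (SE 0.34, adjusted p = 0.938) and -0.21 over the input (SE 0.34, 0.757). Scaling by library size alone moved the median of all genes over control IP to -0.96, against -0.12 with TMM. Under that scaling Myc (-0.91, adjusted p = 0.0485) and Egr2 (-1.12, 0.0221) were called lower in Roquin IP, at values close to the shift of all genes. Over the input Egr2 was called lower in the same way (-1.06, 0.0244), with the median of all genes at -0.76.

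Btg2, on chromosome 1 (134075170 to 134079120, minus strand), encodes an antiproliferative protein that itself binds the CCR4-NOT deadenylase. Its levels in Roquin IP were 95.6, 76.6 and 98.01 CPM, against 92.9, 71.1 and 65.5 CPM in the control IPs and 41.5, 47.8 and 46.1 CPM in the inputs. Both IPs lay above the input in all libraries and overlapped each other. The log2 fold change of Roquin IP was 0.24 over control IP (SE 0.26, adjusted p = 0.814) and 0.99 over the input (SE 0.26, adjusted p = 0.0328). Control IP over the input gave 0.76 (SE 0.26, adjusted p = 0.133). Blocking on the replicate number brought that value past the threshold (0.74, 0.0439). The call over the input ended with library size alone (0.26, adjusted p = 0.541) and without Roquin IP 1 (0.124), Roquin IP 2 (0.0564), Roquin IP 3 (0.131), control IP 2 (0.0516), Input 1 (0.0917), Input 2 (0.0789) or Input 3 (0.0737). The single AU-rich heptamer of Btg2 is shown for comparison with those of Ier3.
Btg2, chr1:134077254-134077272, minus strand: aagagcTATTTATacatgt

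**Figure D4:**
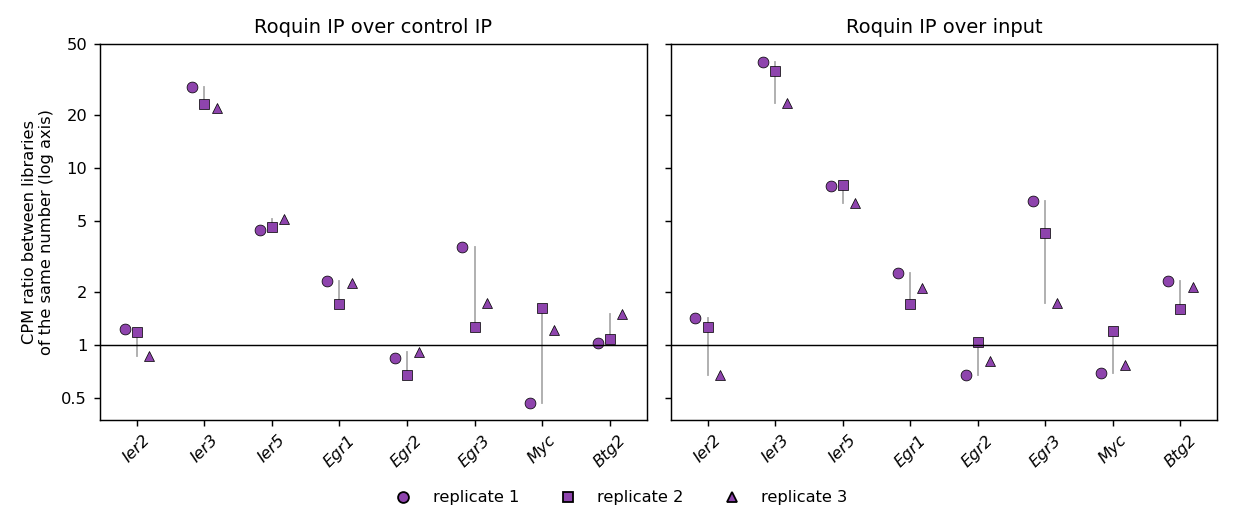
Ratio of CPM between the Roquin IP library and the control IP (left) or input (right) library of the same number (y axis, log scale), by gene; symbols give the number and grey lines the span. Ier3, Ier5, Egr1, Egr3 and Btg2 lie above 1 for all 3 numbers in both panels, and the ratios of Egr1 over control IP span 1.70 to 2.29.

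Counted together, 2 of the 8 genes were higher in the Roquin IPs over control IP and 0 lower, against 3.76% of all tested genes higher and 0% lower. At an unadjusted p under 0.05, 759 of the 9567 tested genes were higher by edgeR, with Ier3, Ier5 and Egr3 among them, and 204 lower. DESeq2 called 5 genes lower after adjustment. Over the input 4 of 8 were higher and 0 lower, against 5.45% and 2.79%. In control IP over the input 0 of 8 passed, against 0.815% higher and 0.303% lower. At an edgeR p under 0.05 before adjustment Ier5 and Btg2 were higher there, beside 1036 of the 9567 tested genes higher and 912 lower. In DESeq2, 0 members passed in that comparison. With the replicate block the members called higher were 3 over control IP (Egr1 added), 5 over the input (Egr1 added) and 1 in control IP over the input (Btg2). In the last comparison the block called 636 of the 9567 genes higher and 553 lower, against 78 and 29 without it, and over the input it called 956 higher and 769 lower, against 521 and 267. Over control IP it called 528 higher and 11 lower, against 360 and 0. The median log2 fold change of the 8 was 0.62 over control IP and 1.06 over the input, against -0.12 and -0.01 for all genes. Without overlap between groups, 3 of 8 (Ier3, Ier5 and Egr3) lay higher in all Roquin IP than in all control IP libraries, against 10.7% of all genes. Over the input 4 of 8 did (Btg2 as well), against 16.5%, and 2 of 8 (Ier5 and Btg2) lay higher in control IP than in the input, against 12.2%. Both Roquin comparisons share the Roquin IP libraries, and both input comparisons the input libraries. The members were chosen with earlier results of these data known, so their shares and medians cannot test immediate early genes as a class.

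**Figure D5:**
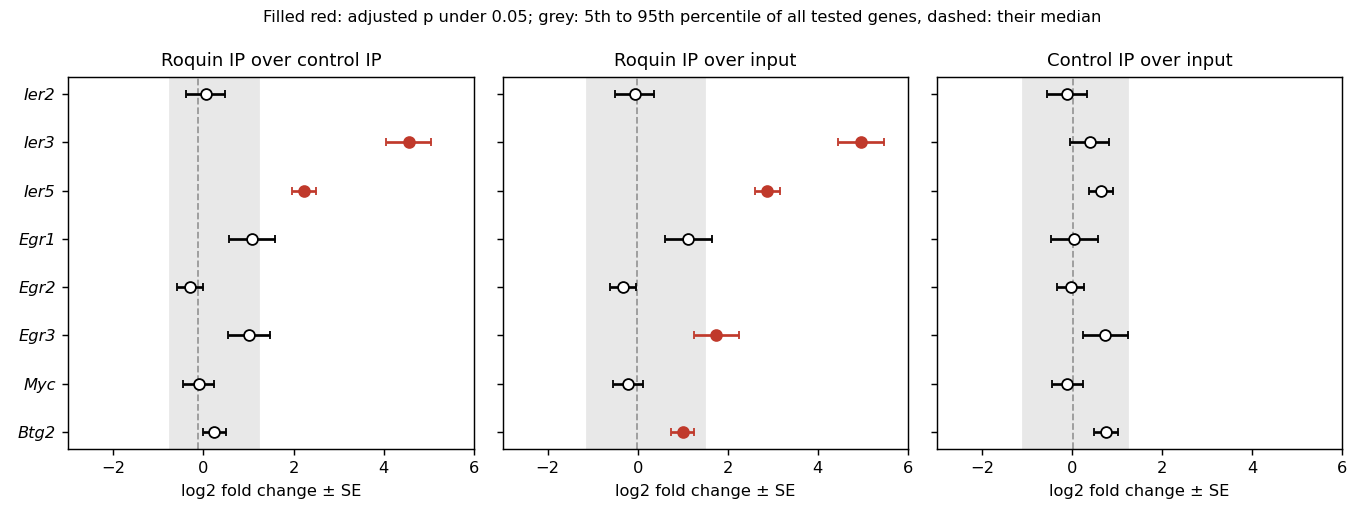
Log2 fold change with its SE (x axis) of each gene in the 3 comparisons; filled red points passed an adjusted p under 0.05, the grey band spans the 5th to 95th percentile of all tested genes and the dashed line is their median. Ier3 (4.56 and 4.95) and Ier5 (2.24 and 2.88) lie beyond the band in both Roquin comparisons, and no gene does in control IP over input.

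Levels can be set between genes only per length, here as CPM per kilobase of the transcript with the longest 3' UTR. In the input the order was Ier3 (180 ± 78.0), Myc (48.2 ± 12.2), Ier2 (31.8 ± 21.8), Egr2 (27.3 ± 9.54), Btg2 (16.5 ± 1.19), Ier5 (14.8 ± 1.92), Egr1 (7.51 ± 3.78) and Egr3 (1.30 ± 0.844; SD, n = 3 each). Ranges overlapped between neighbours in the middle of this order: Myc with Ier2, Ier2 with Egr2, and Btg2 with Ier5. Ier3 stood above all others (90.02 to 227.2 CPM per kilobase, against 37.1 to 61.3 for Myc), and Egr3 below all others. In Roquin IP, Ier5 stood second (108.5 ± 13.5) after Ier3 (5559 ± 2220), while in control IP, as in the input, it was the sixth.

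The genes whose levels over the 9 libraries were most like those of Ier3 and Ier5 were taken by Pearson's r of log2 CPM, as a description. The points fall into the 3 IP groups and share library depth. For Ier3 they were Ccl4, a chemokine gene (r = 0.986), Dnajb1, a heat shock co-chaperone gene (0.984), and Hcst, a signalling adaptor gene (0.98). For Ier5 they were Pias3, a SUMO ligase gene (0.989), Akap10, an anchoring protein gene (0.988), and Mthfd2, a mitochondrial folate enzyme gene (0.986). All 6 were themselves higher in Roquin IP over control IP, at log2 fold changes of 1.2 (Akap10) to 6.67 (Ccl4) and adjusted p of at most 0.00755. Likeness apart from this difference between groups was not tested. None of these 6 carried a predicted CDE in the deposited table, but neither did 9437 of the 9567 tested genes. Of the 360 genes higher over control IP, 329 had none.

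Other genes of the early response were taken as lists, which were chosen with earlier results of these data known. Their counts over control IP stand beside 3.76% of all tested genes higher and 0% lower, with a median log2 fold change of -0.12. Of 10 genes of the EGR and SRF circuit 8 were tested, and 0 were higher or lower in Roquin IP over control IP (median -0.15). Srf, the serum response factor that drives Egr1 and Fos, and its partner Elk1 were higher over the input (1.03, adjusted p = 0.0416, and 1.29, 0.0272). Both were higher in control IP over the input as well (1.35, 0.0439, and 1.52, 0.045). All 4 calls ended with library size alone and without Input 1, Input 2 or Input 3. Over the input for Roquin IP, both also ended without Roquin IP 1 or Roquin IP 3 and Srf without control IP 2, with adjusted p up to 0.177 for Srf and 0.115 for Elk1 when 1 library was left out. In control IP over the input both ended as well with only the 6 libraries compared and without any 1 Roquin IP library, control IP 2 or control IP 3, with adjusted p up to 0.129 for Srf and 0.125 for Elk1.

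Of 11 genes of the MYC and MAX network 10 were tested and 1 was higher over control IP. Mnt, a MAX-binding repressor that opposes MYC, had 163, 331 and 426 counts in the Roquin IPs, 24, 53 and 128 in the control IPs, and 19, 16 and 13 in the inputs. Its level was 50.5 ± 15.5 CPM in Roquin IP, 9.57 ± 1.98 CPM in control IP and 6.84 ± 0.782 CPM in the input (SD, n = 3 each). Its log2 fold change was 2.37 over control IP (SE 0.34, adjusted p = 0.000451) and 2.87 over the input (0.000145), and the table gave it no CDE. Mycn, the paralog of Myc, was at -0.50 over control IP (adjusted p = 0.576), and Mycl1 had no count.

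Of 5 genes of the BTG and TOB family 3 were tested and 0 passed over control IP. Btg1, the paralog of Btg2, was at 0.07 (adjusted p = 0.952). Tob2, named after its values were seen, was higher over the input (2.02, adjusted p = 0.00987) but not without Input 2 (0.0676). Without Input 3 it was at 2.75 (0.00147). Btg3 and Btg4 had no count. Of the IER relatives, Ier5l had 0 counts in the Roquin IPs, 5 in the control IPs and 1 in the inputs. Ier3ip1, the gene of an IER3-interacting protein, was at -0.14 over control IP and did not pass.

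Of 38 other immediate early genes 32 were tested, and 5 were higher over control IP and 0 lower (median log2 fold change -0.06), beside 3.76% of all tested genes higher. Because the list was chosen with earlier results of these data known, its share cannot test immediate early genes as a class. The 5 were Fos, the early transcription factor gene Klf10, and Id1, Id2 and Id3, which encode inhibitors of helix-loop-helix transcription factors. Id3 was at 2167 ± 196.2 CPM in Roquin IP, 53.9 ± 3.36 CPM in the control IPs, and 41.5 ± 20.5 CPM in the inputs, a log2 fold change of 5.33 over control IP (adjusted p = 7.72e-07). Klf10 (5.22, adjusted p = 2.66e-05), Id1 (6.09, 2.88e-05) and Id2 (4.85, 6.63e-05) also exceeded Ier3 in fold change. Of these 5, Fos alone was classed with a conserved CDE. Fos was at 32.9 ± 7.63 CPM in Roquin IP, 5.34 ± 4.38 CPM in control IP and 1.59 ± 1.04 CPM in the input, with 1, 6 and 4 counts in the inputs. Its log2 fold change was 2.56 over control IP (SE 0.64, adjusted p = 0.0384) and 4.37 over the input (0.00335). The call over control IP ended with library size alone (0.0501), with only the 6 libraries compared (0.0559) and without Roquin IP 1 (0.0699), Roquin IP 2 (0.129), Roquin IP 3 (0.145), control IP 2 (0.0697), control IP 3 (0.0551) or Input 2 (0.0641). Jund, the gene of another AP-1 subunit, was the sixth listed gene higher in Roquin IP over the input (1.01, adjusted p = 0.0326), which was lost when scaled by library size alone (0.25, 0.529) and when Input 2 (0.117), Input 3 (0.0836), Roquin IP 1 (0.144), Roquin IP 2 (0.0798) or Roquin IP 3 (0.0666) was left out. It was also higher in control IP over the input (1.76, adjusted p = 0.0166). This call of control IP over the input ended with only the 6 libraries compared (0.0513) and without control IP 2 (0.0678), Input 1 (0.0736) or Input 2 (0.09).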

How the data were processed

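The authors' deposited table gives raw read counts per gene for 9 libraries, per the file headers. It also holds the authors' ratio and p-value of the Roquin IP over the control IP. The deposited ratio is headed log2 but is on a linear scale, with no negative value. For the adjustment of that p-value, the genome build, the annotation, strand handling and read length, the sources used here give nothing. CASAVA 1.8.2, BWA and DESeq 1.8.3 are named in the submitters' processing notes.

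The counts went into edgeR 4.0.16 (quasi-likelihood F test, TMM factors, group as the only term, all 9 libraries) in R 4.3.3. The filter (filterByExpr, minimum count 10) kept 9567 genes, and 6312 of 20467 had no count. Benjamini-Hochberg adjustment ran over all tested genes with a threshold of 0.05. The SE is the log2 fold change divided by the square root of F. Alternatives were DESeq2 1.42.0, RLE factors, library size alone, Lars2 removed, no filter, 2 groups only, the replicate block and each library left out. With 3 libraries a group, a two-sided permutation test of 1 gene cannot go below p = 0.1 and was not used.

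The replicate numbers are in the sample names, and the design text calls the replicates biological. Deviations from group means correlated at 0.149 to 0.558 between libraries of the same number and at -0.415 to -0.021 between others. Such deviations cancel within a group, so the negative values are partly forced by the positive ones. The numbers may therefore pair the libraries, which the sample names do not state. The main fit ignored this pairing, and the replicate block was the alternative that used it. No 2 libraries of a group were duplicates (chi-square per degree of freedom of at least 13.9).

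Of tested genes, 8772 were matched to GENCODE M21 by symbol and 727 by RefSeq synonym, and 9447 had a 3' UTR. No other annotated gene overlapped the 8 loci. Patterns were searched on the transcript strand. Named genes were the 8 members, listed early-response genes called over control IP, the 5 largest changes in the other comparisons, and the 3 genes most like each member called over control IP. Members and lists were chosen with earlier results of these data known.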

Additional observations from a re-analysis of the deposited data

How the results depend on the processing

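Ier3 and Ier5 kept direction and call in all 16 alternatives of both Roquin comparisons. Over control IP, the genes called lower numbered 0 in the edgeR fit, 3708 with library size alone, 21 with no filter, 5 with DESeq2, 11 with the replicate block and 0 to 3 with 1 library left out, and 2 members were called lower with library size alone. Over the input, 521 genes were higher, against 259 with library size alone, 956 with the replicate block and 298 to 679 with 1 library left out. There 267 were lower, against 2668 with library size alone, 416 with no filter, 519 with DESeq2, 769 with the block and 30 to 452 with 1 library left out. The 4 members called higher over the input became 2 with library size alone and 2 to 4 with 1 library left out, and 1 member was then called lower with library size alone. In control IP over the input, 78 genes were higher and 29 lower. These were 335 and 229 with no filter, 385 and 373 with DESeq2, 2 and 1 with only the 6 libraries compared, 636 and 553 with the block, 0 to 185 and 0 to 86 with 1 library left out, and 10 lower with library size alone. The block called 1 member (Btg2) there, and it also added Egr1 to the members called over control IP and over the input. It changed no other call of a member. Among the listed genes named, the block called Jund lower over control IP (-0.75, adjusted p = 0.0383) and Id2 lower in control IP over the input (-1.22, 0.0431).

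Signs turned only for values that did not pass. Over control IP, Ier2 was at -0.80 with library size alone and -0.18 to 0.51 with 1 library left out, Btg2 at -0.57 with library size alone, and Myc at -0.36 to 0.32 with 1 library left out. Over the input, Ier2 was at 0.068 with the block and -0.34 to 0.66 with 1 library left out, and Myc at -0.37 to 0.004. In control IP over the input, Ier2 was at 0.024 with library size alone and -0.575 to 0.557 with 1 library left out, Egr1 at -0.50 to 0.51, Myc at -0.53 to 0.14, Klf10 at -0.62 to 0.072, and Egr2 at 0.059 with library size alone, 0.024 with the block and -0.267 to 0.245 with 1 library left out. Library size alone moves the median of all genes, and fewer libraries leave fewer degrees of freedom. Other causes were not tested. The members with a stem-loop numbered 1 in the longest 3' UTR, in any annotated 3' UTR and with 5 pairs on the stem.

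The inputs were the shallowest libraries, so 7 to 18 counts stand behind each Egr3 input value, and Fos had 1 to 6. Nothing in the labels beyond the word biological says how the cultures were separated.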

Other observations

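A wider stem-loop search, added after the data were seen, allowed any stem of 6 or more pairs (G-T pairs included) around a loop of pyrimidine, purine and any base. It found 8 matches in the 3' UTR of Ier5, 6 in Egr3, 4 in Btg2, 3 in Egr1, 2 in Egr2 and 0 in Ier2, Ier3 and Myc, so 5 of the 8 members held at least 1. The match is common: 62.6% of 9447 tested 3' UTRs held it, and 85.6% of 736 within 10% of the length of that of Ier5. In that length class 3 of 736 3' UTRs, Ier5 included, held 8 or more, a cutoff set by the count of Ier5 itself. The longest stem among the members was in Btg2 (16 pairs), which did not pass over control IP. The 3 matches of Ier5 with 9 or more pairs are shown, minus strand, with the loop in capitals.
Ier5, chr1:155097629-155097657: ctccagtctttgtTGTataaaggttgggg
Ier5, chr1:155096733-155096753: cgttttgtcTAAggcaaaatg
Ier5, chr1:155096705-155096725: cttaagaggTACtctcttagg
The first had 13 pairs and the other two 9 each. Their loops began at bases 860, 1760 and 1788 of the 2143-base 3' UTR. Whether Roquin binds them was not measured. The same search leaves out Ier3 because its stem has 5 pairs.

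In the length class of the 3' UTR of Ier3, 1 of 498 tested 3' UTRs held 4 or more AU-rich heptamers, and that 1 was Ier3. The cutoff was the count of Ier3 itself, so its own presence was fixed in advance.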
